A study of Mus musculus with 4 samples.

Results

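Immunoglobulin gene segments are the V, D, J and constant genes from which B cells build antibody chains, and their RNA was counted here in sorted mouse mammary tumor cells. A gene was taken when its annotated class was an immunoglobulin gene and not a pseudogene, and when it had at least 5 counts over the 4 libraries. Of the 54532 genes counted, 268 were immunoglobulin genes that are not pseudogenes, and 95 of these reached the minimum. These 95 genes were selected on their summed counts, so the counts below describe them and their presence is not a finding. Of the other 173 genes, 119 had no count and 54 had 1 to 4 counts. The 95 comprise 39 heavy-chain genes (7 constant, 31 V and 1 J), 50 kappa-chain genes (1 constant, 48 V and 1 J) and 6 lambda-chain genes (3 constant and 3 V). None of the 17 named heavy D genes reached the minimum, and 1 had any count.

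The tumors were primary mouse breast cancers of the MMTV-PyMT model on C57BL/6, in which the mouse mammary tumor virus promoter drives the polyoma middle T antigen, and arose from an MFP injection (read here as mammary fat pad) of PyMT-Dll1+ material. An mCherry reporter marked expression of Dll1, a Notch ligand. The irradiated group was 2 libraries of mCherry-positive tumor cells after targeted radiation (day 30), and the unirradiated group was 2 libraries of the same cells from tumors with no radiation. In both groups digested tumors were first enriched for tumor cells by a sort using CD45, CD31 and TER119 antibodies (to blood cells, endothelium and red cells) before mCherry-positive cells were collected. Poly(A) RNA was sequenced without strand information, and the counts summed to 19931303 and 18903631 in irradiated 1 and 2 and to 20817997 and 16811888 in unirradiated 1 and 2. Whether the libraries within a group stem from different animals is not stated in the labels, so p-values reflect library-to-library spread that may be only technical. The title codes differ between the groups and are shared within them, and any step tied to those codes cannot be told apart from radiation.

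In a developing B cell 1 V, 1 J and, for the heavy chain, 1 D segment are joined by DNA recombination, and splicing links the joined exon to a constant gene. Resting B cells make IgM and IgD from the same heavy-chain locus. After activation they can switch to IgG, IgE or IgA, and plasma cells, which secrete antibody, hold very large amounts of these RNAs. Mammary tissue is a known home of IgA-secreting plasma cells during lactation.

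The ends of V genes carry the codon of a conserved cysteine just before the joining point. They are shown for the heavy and kappa V genes with the most counts, and those of Ighv1-85 and Ighv1-81 are nearly identical. Capitals mark that cysteine codon. The heavy V genes shown are Ighv1-85 (chr12:116000028-116000087, minus strand), Ighv1-81 (chr12:115920279-115920338, minus strand) and Ighv1-78 (chr12:115868773-115868832, minus strand). The kappa V genes shown are Igkv14-111 (chr6:68256810-68256869, plus strand), Igkv2-109 (chr6:68303099-68303158, plus strand) and Igkv1-117 (chr6:68121768-68121827, plus strand). All sequences are GENCODE M21 transcripts on GRCm38 (mm10), 5′ to 3′.
Ighv1-85: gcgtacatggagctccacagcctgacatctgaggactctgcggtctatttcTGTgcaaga
Ighv1-81: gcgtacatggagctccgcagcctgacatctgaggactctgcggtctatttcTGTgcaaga
Ighv1-78: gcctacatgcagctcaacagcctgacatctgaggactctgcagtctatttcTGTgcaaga
Igkv14-111: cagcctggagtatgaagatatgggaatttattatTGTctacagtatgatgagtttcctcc
Igkv2-109: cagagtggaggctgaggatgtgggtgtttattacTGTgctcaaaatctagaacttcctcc
Igkv1-117: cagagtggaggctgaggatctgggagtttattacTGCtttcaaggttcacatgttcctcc

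The J genes that reached the minimum, Ighj4 (chr12:113428514-113428567, minus strand) and Igkj5 (chr6:70723886-70723927, plus strand), supply the end of the joined exon, and capitals mark the codons of their shared motif of an aromatic residue, glycine, any residue and glycine. The first bases of Igkc (chr6:70726435-70726554, plus strand), the single kappa constant gene, follow.
Ighj4: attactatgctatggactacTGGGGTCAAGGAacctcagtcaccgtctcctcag
Igkj5: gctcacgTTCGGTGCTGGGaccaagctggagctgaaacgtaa
Igkc: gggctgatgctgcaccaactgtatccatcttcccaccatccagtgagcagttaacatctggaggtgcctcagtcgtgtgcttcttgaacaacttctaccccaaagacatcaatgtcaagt

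Together the 95 genes received 797 counts in irradiated 1 and 4461 in irradiated 2, against 177 in unirradiated 1 and 143 in unirradiated 2. Scaled to library size with TMM factors, as CPM, these sums were 40.2 and 238 CPM in irradiated libraries, against 8.52 and 8.43 CPM in the unirradiated ones. Both irradiated sums lay above both unirradiated sums, and the 2 irradiated libraries differed from each other by 5.92 times, while the 2 unirradiated ones nearly coincided. Relative to the unirradiated mean, irradiated 1 was 4.74 times and irradiated 2 was 28.1 times as high. The mean was 139 ± 140 CPM in irradiated libraries and 8.48 ± 0.059 CPM in unirradiated libraries (SD, n = 2 each). In such bulk samples fewer cells of a type and less RNA per cell cannot be told apart.

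All 3 chains were higher in both irradiated libraries, with irradiated 2 the highest. The heavy-chain genes summed to 22.9 and 158 CPM in irradiated libraries, against 4.67 and 4.36 CPM in the unirradiated ones. The kappa-chain genes summed to 15.3 and 73.8 CPM in irradiated libraries, against 3.61 and 3.89 CPM in the unirradiated ones. The lambda-chain genes summed to 2.02 and 6.50 CPM in irradiated libraries, against 0.241 and 0.177 CPM in the unirradiated ones, where they rest on 5 and 3 counts. The groups did not overlap for any chain. For lambda this rests on the constant genes, since the lambda V members were at 0 CPM in irradiated 1, against 0.0481 and 0.0590 CPM in the unirradiated libraries. Of the 95 genes, 84 reached the minimum through the irradiated libraries alone, so the selection favors higher sums there.

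The minimum was reached through the irradiated libraries alone by 84 of the 95 genes, so the number of genes that are higher there is in large part set by the selection. For 34 of the 95 genes both irradiated values exceeded both unirradiated values, and for 1, Igkv14-111, both were below them. Among all 22226 genes with at least 5 counts 19.5% lay above in the same way. In irradiated 2 alone 36 of the genes had counts, and 59 had no count in either unirradiated library. Counts in all 4 libraries were found for 6 genes, Ighm, Igkc, Igha, Ighd, Iglc2 and Igkv14-111. At the minimum itself stood 10 genes, such as Igkv4-59 with 0 and 5 counts in the irradiated libraries and 0 and 0 in the unirradiated ones, and Ighv1-82 with 0 and 2 counts in the irradiated libraries and 0 and 3 in the unirradiated ones. Just below it stood 12 genes with 4 counts, such as Ighv1-53 with 0 and 4 counts in the irradiated libraries and 0 and 0 in the unirradiated ones. The pseudogenes of the loci, 161 in all, had 1 and 4 counts in the irradiated libraries and none in the unirradiated ones.

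The difference between groups was tested for every gene with edgeR's quasi-likelihood test over 15993 genes, adjusted by Benjamini-Hochberg. Only 10 of the 95 genes passed the filter on low counts, 7 constant genes with Igkv14-111, Igkv2-109 and Ighv1-85. None of the 10 passed an adjusted p of 0.05, as did no gene of the table (0%). Of the 10, 8 had an unadjusted p under 0.05 and were higher in the irradiated libraries, where 6.82% of all tested genes were. Both irradiated libraries lay above for 8 of the 10, where 20.3% of tested genes did. Some of the 10, such as Ighg1, Igkv2-109 and Ighv1-85, had no unirradiated count and passed the filter through the irradiated libraries alone. These comparisons are therefore in part set by the filter. With DESeq2, 7 of the 10 passed the adjusted threshold, all higher in the irradiated libraries, as did 2.96% of the 14752 genes it gave an adjusted p. DESeq2 gave Ighv1-85, 1 of the 10, no adjusted p. The 2 tools thus gave different calls for these genes, and the other 85 genes were not tested by edgeR.

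The constant genes carry most of the counts. Igkc (chr6:70726435-70726966), which encodes the constant domain of kappa light chains, had 184 and 827 counts in the irradiated libraries, against 15 and 22 in the unirradiated ones. It averaged 26.7 ± 24.6 CPM in irradiated libraries and 1.01 ± 0.41 CPM in unirradiated libraries (SD, n = 2 each). Its edgeR log2 fold change was 4.73 (SE 0.90), with an adjusted p of 0.489 by edgeR and 5.27e-08 by DESeq2. Ighm (chr12:113418558-113422730), which encodes the IgM heavy chain, had 156 and 918 counts in the irradiated libraries, against 55 and 27 in the unirradiated ones. Its log2 fold change was 3.73 (SE 0.95), with an adjusted p of 0.489 by edgeR and 0.000182 by DESeq2. For both genes every irradiated value lay above every unirradiated value, and irradiated 2 stood far above irradiated 1.

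Ighd (chr12:113406604-113416324), the IgD gene that mature naive B cells express together with Ighm, had 66 and 250 counts in the irradiated libraries, against 29 and 14 in the unirradiated ones. Its edgeR log2 fold change was 2.89 (SE 0.78), with an adjusted p of 0.489 by edgeR and 0.01265 by DESeq2. Ighd made up 29.7% and 21.4% of the Ighm and Ighd counts in the irradiated libraries, against 34.5% and 34.1% in the unirradiated ones. The Wilson 95% intervals of these shares overlapped between irradiated 1 and both unirradiated libraries. That of irradiated 2, 19.1 to 23.8%, ended below that of unirradiated 1, 25.2 to 45.2%, but overlapped that of unirradiated 2, 21.6 to 49.5%. It also ended below that of irradiated 1, 24.1 to 36.0%, so the irradiated libraries differed from each other too.

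The 4 IgG genes together had 167 and 761 counts in the irradiated libraries, against 0 and 5 in the unirradiated ones. Ighg1 (chr12:113325240-113330523), the IgG1 heavy chain, had 138 and 456 counts in the irradiated libraries, against 0 and 0 in the unirradiated ones. Taking the unirradiated libraries at a floor of 3 counts each, its mean was at least 97.3-fold higher in the irradiated libraries. The edgeR adjusted p was 0.489 and the DESeq2 one 4.49e-08. Ighg2b (chr12:113302965-113307933), the IgG2b heavy chain, had 26 and 182 counts in the irradiated libraries, against 0 and 5 in the unirradiated ones. Ighg2c (chr12:113285325-113288932), the IgG2c heavy chain that C57BL/6 mice carry, had 3 and 112 counts in the irradiated libraries, against 0 and 0 in the unirradiated ones. Ighg3 (the IgG3 heavy chain) had 0 and 11 counts in the irradiated libraries and none in the unirradiated ones, so its groups overlap at 0. The longest transcripts of Ighg2b and Ighg2c are 87.8% identical with stretches of up to 78 identical bases, so how reads were divided between them is uncertain. Ighe, the IgE gene, had no count in any library.

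Igha (chr12:113254830-113260236), the IgA heavy chain, was the largest constant gene whose groups overlapped. It had 7 and 659 counts in the irradiated libraries, against 6 and 12 in the unirradiated ones. Irradiated 1, at 0.353 CPM, lay between the unirradiated libraries at 0.289 and 0.708 CPM, and only irradiated 2, at 35.1 CPM, stood apart. The edgeR log2 fold change was 5.16 (SE 2.02), with an adjusted p of 0.540 by edgeR and 0.263 by DESeq2. Without irradiated 2 it was −0.47, so the difference rests on that library. Ighg2c, with 3 and 112 counts in irradiated 1 and 2, and Ighg3, with 0 and 11, also had most of their counts in irradiated 2.

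**Figure D1:**
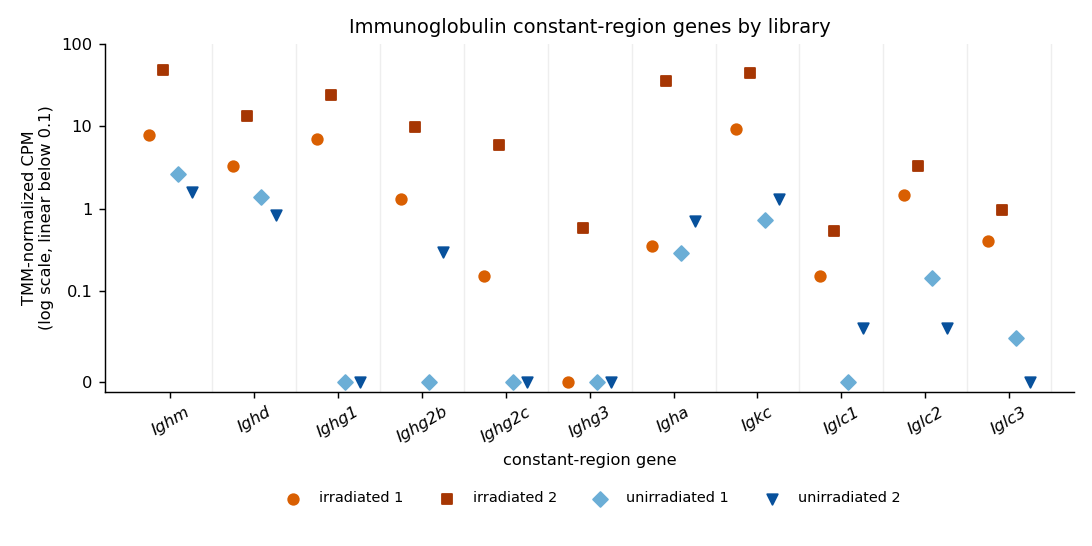
TMM-normalized CPM of the 11 constant-region genes in each of the 4 libraries, 1 point per library, on a vertical axis that is logarithmic above 0.1 and linear below. For 9 genes both irradiated points lie above both unirradiated points, and for Igha irradiated 1 lies among the unirradiated points. Among all genes with at least 5 counts 19.5% lay above in this way. The genes shown were selected on summed counts, and in irradiated 1 Ighg2c and Iglc1 rest on 3 counts each.

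The lambda constant genes were lower than Igkc throughout. Iglc2 (chr16:19198396-19200351) had 29 and 62 counts in the irradiated libraries, against 3 and 1 in the unirradiated ones. Its edgeR log2 fold change was 4.42 (SE 0.78), with an adjusted p of 0.489 by edgeR and 0.0100 by DESeq2. Iglc3 had 8 and 18 counts in the irradiated libraries, against 1 and 0 in the unirradiated ones, and Iglc1 had 3 and 10, against 0 and 1. Iglc2 and Iglc3 are 95.3% identical and share stretches of up to 79 bases, so reads between them may be divided wrongly, and 20.6% of the exon bases of Iglc3 overlap the antisense gene 2010309G21Rik. Iglc4 had no count. Kappa made up 82.1% (Wilson 95% interval 76.6 to 86.6%) and 90.2% (88.1 to 91.9%) of the light-chain constant counts in irradiated 1 and 2, against 78.9% (56.7 to 91.5%) and 91.7% (74.2 to 97.7%) in unirradiated 1 and 2. The kappa share thus differed between the irradiated libraries beyond counting error, and each unirradiated interval spanned both irradiated shares. These intervals, and the floors, cover counting error only.

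Per kilobase of the deposited gene length Igkc had the highest level of the constant genes in the irradiated libraries, at 17.4 and 82.9 CPM per kilobase, with 1.36 and 2.44 in the unirradiated libraries. Ighm followed with 4.17 and 25.9 CPM per kilobase in the irradiated libraries, against 1.40 and 0.844 in the unirradiated ones. In irradiated 2 Igha, at 13.2 CPM per kilobase, came next, above Ighg1 at 9.38. In irradiated 1 Ighg1, at 2.69 CPM per kilobase, stood far above Igha at 0.132.

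The make-up of the heavy-chain constant counts differed between libraries. Switched classes, IgG and IgA together, made up 43.9% (39.1 to 48.9%) and 54.9% (52.9 to 56.8%) of them in the irradiated libraries, against 6.67% (3.09 to 13.8%) and 29.3% (19.2 to 42.0%) in the unirradiated ones. Both irradiated shares lay above both unirradiated ones. The interval of unirradiated 2 reached above the lower end of that of irradiated 1. IgG alone was 42.2% and 29.4% in the irradiated libraries, against 0 of 90 counts (Wilson upper bound 4.09%) and 8.62% in the unirradiated ones. IgA did not follow this order, with 1.77% (0.859 to 3.60%) and 25.5% (23.8 to 27.2%) in the irradiated libraries, against 6.67% and 20.7% in the unirradiated ones. Ighm was 39.4% and 35.5% in the irradiated libraries, against 61.1% and 46.6% in the unirradiated ones. The unirradiated shares rest on 90 and 58 counts.

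**Figure D2:**
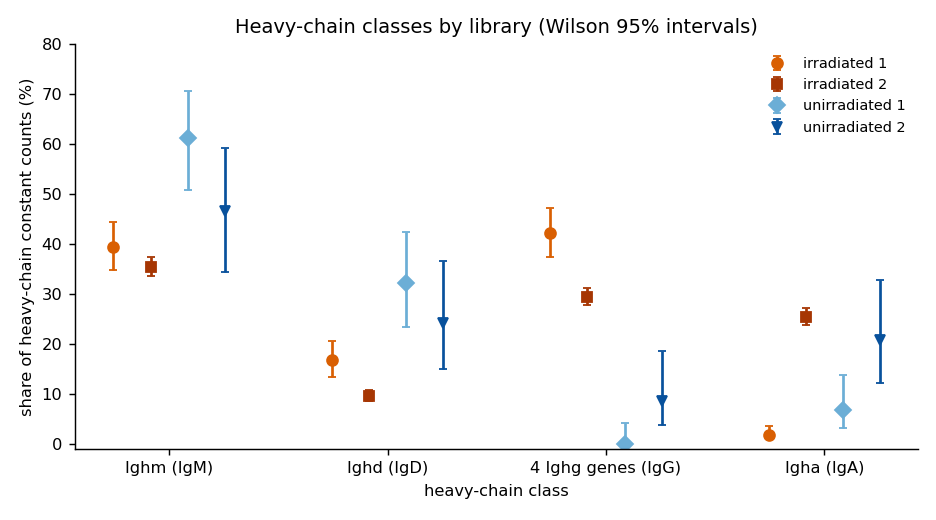
Share of heavy-chain constant counts (percent) taken by Ighm, Ighd, the 4 IgG genes together and Igha, 1 point per library with Wilson 95% intervals. IgG is at 42.2% and 29.4% in the irradiated libraries and at 0% and 8.62% in the unirradiated ones, while Igha is lowest in irradiated 1 and highest in irradiated 2.

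Among the V genes, which encode most of the antigen-binding domain, Igkv14-111 (chr6:68256389-68256869) stood apart. It had 32 and 25 counts in the irradiated libraries, against 48 and 28 in the unirradiated ones, which is 1.61 and 1.33 CPM in irradiated libraries and 2.31 and 1.65 CPM in the unirradiated ones. It was the 1 member of the 95 for which both irradiated values lay below both unirradiated values. The edgeR log2 fold change was −0.43 (SE 0.42), with an adjusted p of 0.835. Igkv14-111 took 26.9% and 4.49% of the counts of kappa V and J members in the irradiated libraries, against 80% and 63.6% in the unirradiated ones. Without it, the kappa V and J members summed to 4.39 and 28.4 CPM in irradiated libraries, against 0.577 and 0.944 CPM in the unirradiated ones. Its closest V gene, Igkv14-126, is 91.6% identical with shared stretches of up to 44 bases, and Igkv14-126 had 0 and 5 counts in the irradiated libraries and none in the unirradiated ones. Its exons overlap no exon of another gene in GENCODE M21.

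The other V genes named here and below were picked by counts summed over the 4 libraries. Most V counts came from irradiated 2, so higher values there are in large part set by that choice. Igkv2-109 had 17 and 48 counts in the irradiated libraries, against 0 and 0 in the unirradiated ones, at least 10.6-fold higher on the same floor, with an edgeR adjusted p of 0.489. Igkv1-117 had 9 and 33 counts in the irradiated libraries, against 0 and 4 in the unirradiated ones. Igkv3-2 had 1 and 34 counts in the irradiated libraries, against 0 and 0 in the unirradiated ones, and Igkv6-15 had 0 and 26, against 1 and 2. For Igkv6-15 the groups overlap, since irradiated 1 had no count.

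Among heavy V genes Ighv1-85 had the most counts, 22 and 39 in the irradiated libraries, against 0 and 0 in the unirradiated ones, at least 9.92-fold higher, with an edgeR adjusted p of 0.489. Ighv1-81 had 7 and 37 counts in the irradiated libraries and Ighv1-78 had 5 and 22, with none in the unirradiated ones. Ighv1-64 had 0 and 22 counts in the irradiated libraries, against 0 and 3 in the unirradiated ones, and Ighv14-2 had 0 and 20, against 0 and 0. These last genes had counts in irradiated 2 and none in irradiated 1. The lambda V genes Iglv1, Iglv3 and Iglv2 had no count in irradiated 1 and 11, 12 and 9 in irradiated 2, with at most 1 count in an unirradiated library. Ighj4 had 6 and 7 counts in the irradiated libraries, against 0 and 0 in the unirradiated ones, and Igkj5 had 0 and 7, against 1 and 0.

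The number of different V genes was highest in irradiated 2, by an amount that depends on depth and on Igkv14-111. Of the 222 V genes of the table that are not pseudogenes, with no count minimum, 31 and 124 had a count in irradiated 1 and 2, against 20 and 19 in unirradiated 1 and 2, on 178 and 1038 V counts in the irradiated libraries and 73 and 66 in the unirradiated ones. Thinned to 66 counts, the expected numbers were 23.9 and 44.0 V genes in the irradiated libraries, against 18.6 and 19 in the unirradiated ones. Thinned to the depth of irradiated 1, irradiated 2 would show 76.8 V genes, against the 31 of irradiated 1. The effective number of V genes (the inverse of the summed squared shares) was 13.5 and 60.5 in the irradiated libraries, against 2.27 and 4.87 in the unirradiated ones. Without Igkv14-111 these were 16.1 and 59.7 in the irradiated libraries, against 16.0 and 13.1 in the unirradiated ones, so the low unirradiated numbers rest on that gene. Thinned to 25 counts without that gene, the expected numbers were 15.3 and 21.02 V genes in the irradiated libraries, against 19 and 14.8 in the unirradiated ones, so irradiated 1 then stood below unirradiated 1 and the lead of irradiated 2 was small.

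The irradiated libraries shared 29 V genes, which is 93.5% of those seen in irradiated 1 and 23.4% of those in irradiated 2. The unirradiated libraries shared 2, which is 10% of those of unirradiated 1 and 10.5% of those of unirradiated 2. Irradiated 2 held 17 of the 20 V genes of unirradiated 1 and 17 of the 19 of unirradiated 2. Such overlaps depend on depth and were not matched for it. The V counts were 178 and 1038 in the irradiated libraries, against 73 and 66 in the unirradiated ones. Without Igkv14-111 the unirradiated libraries held only 25 and 38, so these overlaps do not show whether the V genes used differed between groups. V genes resemble each other, and 37 of the 82 V members share an identical stretch of at least 100 bases with another V gene or pseudogene, so a read may be assigned to a relative of its gene or to none, depending on counting options that the sources used here do not give.

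By family, Ighv1 genes, the largest heavy family with 47.0% of the 115 heavy V genes, took 86.5% (74.7 to 93.3%) and 63.9% (59.1 to 68.3%) of the heavy V counts in the irradiated libraries, against 83.3% and 35% of only 12 and 20 counts in the unirradiated ones. Among kappa V genes the Igkv4 family, 26% of the 100 genes, took 0 of 126 and 12.01% of the counts in the irradiated libraries, against 1.67% and 4.44% in the unirradiated ones. In irradiated 2 the Igkv6 family took 15.4% and the Igkv1 family 13.0% of kappa V counts.

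Along the kappa locus, the 50 V genes farther from the J genes took 72.2% and 51.3% of kappa V counts in the irradiated libraries, against 88.3% and 82.2% in the unirradiated ones, where Igkv14-111, at 2466 kb from the J genes, holds most counts. Along the heavy locus the 58 farther V genes of 115 took 75% and 63.9% in the irradiated libraries, against 66.7% and 35% in the unirradiated ones. Ighv1-85, at 2570 kb, is the gene with most heavy V counts in both irradiated libraries.

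**Figure D3:**
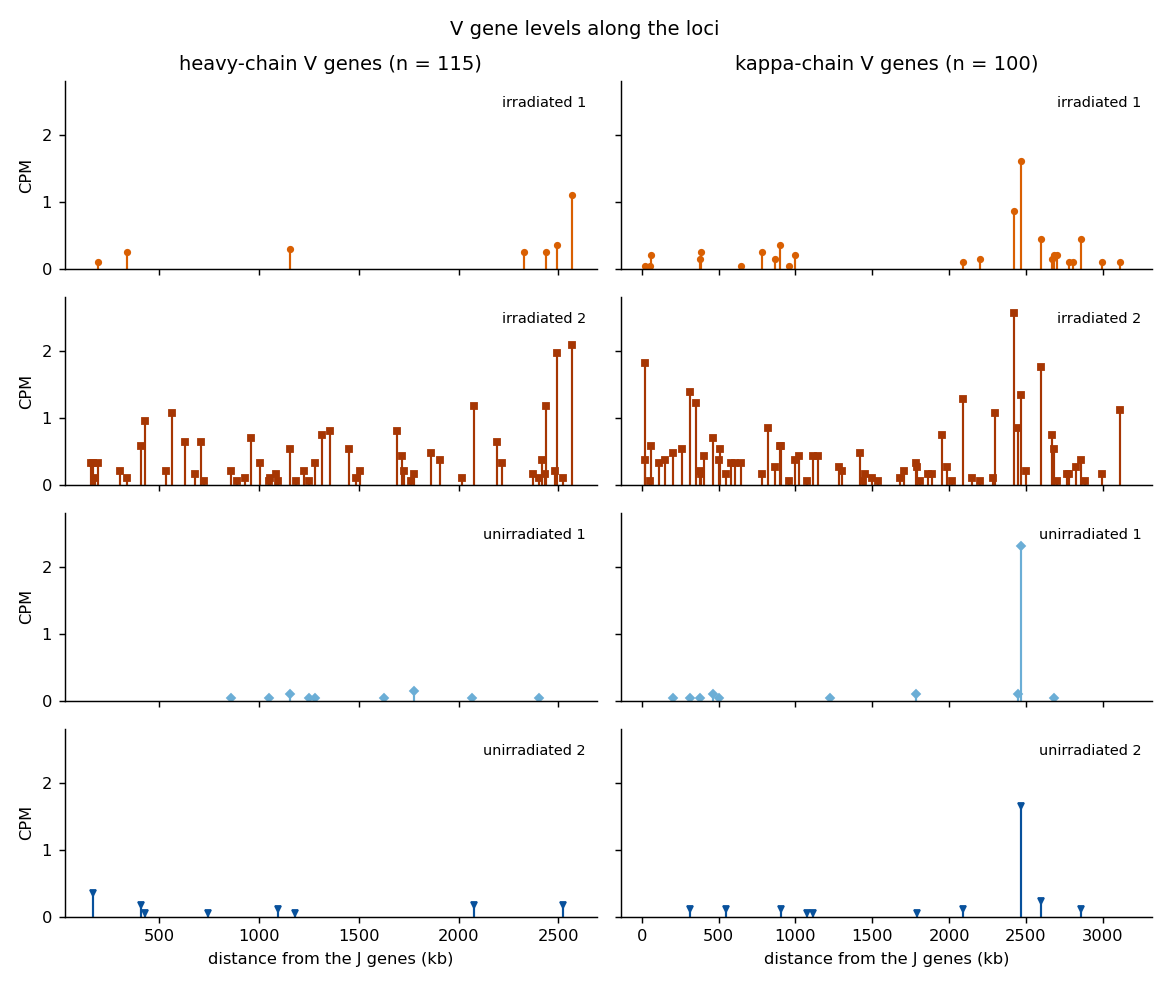
CPM of each of the 115 heavy and 100 kappa V genes against distance from the J genes (kb), 1 row of panels per library, with 1 line per gene and a point where it had a count. Irradiated 2 has counts along the whole of both loci, and the unirradiated libraries have 1 tall kappa line, Igkv14-111.

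Genes of the cells that make immunoglobulin were read beside the segments. For these and all lists below, the shares over all genes are the base for comparison. Of all tested genes 20.3% lay above, and of genes with at least 5 counts 19.5% did. Of the genes that DESeq2 gave an adjusted p, it called 2.96% higher and 0.38% lower. No such share is given here for genes that lay below. Of 15 B cell genes, 14 lay above in both irradiated libraries, and the list summed to 35.7 and 149 CPM in irradiated libraries, against 14.2 and 12.2 CPM in the unirradiated ones. Fcer2a had 22 counts in both irradiated 1 and unirradiated 1, and Fcrla had 2 in both, so these genes lay above only after scaling to library size. The 14 that were tested had a median edgeR log2 fold change of 2.87, beside 0.0040 over all tested genes, and none passed the edgeR threshold in either direction, while DESeq2 called 9 of the 14 higher and none lower. Cd79a, part of the B cell receptor's signaling pair, had 102 and 324 counts in the irradiated libraries, against 43 and 39 in the unirradiated ones. Cd79b, its partner, had 29 and 114, against 5 and 5. Ms4a1, which encodes CD20, had 84 and 209 counts in the irradiated libraries, against 17 and 3 in the unirradiated ones. Cd72, a B cell co-receptor, had the highest mean CPM of the list, with 76 and 554 counts in the irradiated libraries and 55 and 42 in the unirradiated ones. Pax5, the B lineage transcription factor, was the exception to the order, with 19 and 188 counts in the irradiated libraries, against 29 and 15 in the unirradiated ones. The unirradiated libraries thus also held RNA of B cell genes.

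The plasma cell list of 16 genes, of which Igkc is one, lay above for 10 genes and below for 1, Xbp1. Its largest members are also used by other secretory cells, and by DESeq2, which gave 12 of them an adjusted p, Igkc was called higher and Xbp1 lower. Xbp1, a transcription factor of secretory cells, had 785 and 840 CPM in irradiated libraries, against 1099 and 1067 CPM in the unirradiated ones. Its edgeR log2 fold change was −0.41 (SE 0.14), with an adjusted p of 0.503, and the DESeq2 adjusted p was 0.0146. Sdc1, which encodes CD138 and is also made by epithelium, had 153 and 151 CPM in irradiated libraries, against 119 and 120 CPM in the unirradiated ones. Txndc5, a folding enzyme of the endoplasmic reticulum, overlapped between groups. Tent5c, Pou2af1, Slamf7 and Tnfrsf13b, named after their values were seen, were among the genes above. Derl3, Fkbp11 and Eaf2 overlapped between groups. The 12 tested genes of the list had a median edgeR log2 fold change of 0.26, beside 0.0040 over all tested genes.

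Regulators and assembly factors of antibody secretion ranged widely in level. Jchain, which joins IgA and IgM into polymers, had 6 and 172 counts in the irradiated libraries, against 1 and 5 in the unirradiated ones. Per 100 Cd79a counts that is 5.88 and 53.1 Jchain counts in the irradiated libraries, against 2.33 and 12.8 in the unirradiated ones, so irradiated 2 was highest for both Jchain and Igha. Mzb1, a chaperone of antibody assembly, had 14 and 54 counts in the irradiated libraries, against 8 and 5 in the unirradiated ones. Irf4, a transcription factor of activated B and plasma cells, had 27 and 173 counts in the irradiated libraries, against 15 and 16 in the unirradiated ones. Prdm1, the plasma cell regulator Blimp-1, had 585 and 647 counts in the irradiated libraries, against 595 and 474 in the unirradiated ones, with an edgeR log2 fold change of 0.18 (SE 0.14). Tnfrsf17, which encodes the plasma cell receptor BCMA, was at 0 in all 4 libraries.

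B cell precursor genes were scarce. Rag1, part of the recombinase, and Igll1, of the surrogate light chain, had no count in any library, Vpreb1 and Vpreb3 gave most of the precursor counts, and the 7 precursor genes together had 7 and 11 counts in the irradiated libraries, against 7 and 10 in the unirradiated ones. The germinal center list of 8 genes summed to 145 and 132 CPM in irradiated libraries, against 145 and 146 CPM in the unirradiated ones, mostly from Bcl6 and S1pr2, which are also expressed outside B cells, and 2 of its genes lay above and 2 below.

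Relative to the B cell genes, summed immunoglobulin counts and Igkc counts were higher in the irradiated libraries, but Ighd counts were not. The B cell list had 707 and 2789 counts in the irradiated libraries, against 295 and 207 in the unirradiated ones. Ighd had 66 and 250, against 29 and 14, and per B cell count its groups overlapped. Counts of the 95 genes per count of the B cell list were 1.13 and 1.60 in the irradiated libraries, against 0.60 and 0.69 in the unirradiated ones. Igkc counts per Cd79a count were 1.80 and 2.55 in the irradiated libraries, against 0.349 and 0.564 in the unirradiated ones. Per count of Ptprc, the gene of CD45, the order did not hold, with 4.17 and 3.08 in the irradiated libraries, against 3.54 and 7.15 in the unirradiated ones, where Ptprc had 50 and 20 counts.

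Receptors and carriers of immunoglobulin were listed as 13 genes, of which 7 lay above and 1 below. Pigr, which carries polymeric IgA and IgM across epithelium, was the one below, at 107 and 112 CPM in irradiated libraries, against 148 and 151 CPM in the unirradiated ones, with an edgeR log2 fold change of −0.44 (SE 0.10), an edgeR adjusted p of 0.489 and a DESeq2 adjusted p of 0.0333. Of the 10 genes of this list that DESeq2 gave an adjusted p, it called 3 higher and 1 lower. Over all genes with an adjusted p it called 2.96% higher and 0.38% lower. B2m, part of the neonatal Fc receptor and of MHC class I, had the highest level of the list and its groups overlapped, at 993 and 1164 CPM in irradiated libraries, against 996 and 891 CPM in the unirradiated ones. The Fc receptor genes Fcgr1, Fcgr2b and Fcgr3, chiefly of myeloid and B cells, were among those above.

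Markers of other cells moved with the immunoglobulin counts, and their part in the result was not tested. Ptprc had 191 and 1449 counts in the irradiated libraries, against 50 and 20 in the unirradiated ones, and Pecam1, the gene of CD31, had 188 and 2956, against 145 and 84, although the sort used antibodies to both proteins. The T cell list lay above for 10 of 15 genes and summed to 16.1 and 134 CPM in irradiated libraries, against 7.03 and 6.72 CPM in the unirradiated ones. Its largest genes were Lck, a kinase of T cell receptor signaling, at 3.83 and 16.5 CPM in irradiated libraries, against 2.02 and 2.54 CPM in the unirradiated ones, and Bcl11b, a T lineage factor. Cd28 had 3 counts and Cd5 had 8 in both irradiated 1 and unirradiated 1, so these T cell genes lay above only after scaling to library size. The NK cell list lay above for 2 of 6 genes and had 12 and 326 counts in the irradiated libraries, against 7 and 7 in the unirradiated ones, most of them from Nkg7 in irradiated 2, while Gzma, a granzyme, had 0 and 31 counts in the irradiated libraries and 0 and 1 in the unirradiated ones. The macrophage list lay above for 11 of 12 genes and summed to 359 and 1001 CPM in irradiated libraries, against 356 and 324 CPM in the unirradiated ones. Of its genes Cd14, the largest, overlapped between groups, and Lyz2, a myeloid lysozyme, had 344 and 3479 counts in the irradiated libraries, against 77 and 61 in the unirradiated ones. The endothelium list lay above for 6 of 8 genes and summed to 34.7 and 573 CPM in irradiated libraries, against 19.97 and 16.9 CPM in the unirradiated ones. Cdh5, an endothelial cadherin, had 190 and 2513 counts in the irradiated libraries, against 79 and 68 in the unirradiated ones. The fibroblast list lay above for 5 of 8 genes and summed to 777 and 5684 CPM in irradiated libraries, against 583 and 597 CPM in the unirradiated ones. Its largest genes, the collagens Col3a1 and Col1a1, both lay above. Irradiated 2 was highest for each of these lists, as it was for the immunoglobulin sum. None of their tested genes passed the edgeR threshold, as no gene of the table did, while DESeq2 called higher 11 of 12 macrophage genes, 5 of 8 T cell genes, 1 of 8 endothelium genes, no fibroblast gene and, of the sort markers, Ptprc (adjusted p 0.0239).

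Salivary-type secretory genes, read because glands hold IgA plasma cells, split by gene. Dcpp1 had 1338 and 6288 counts in the irradiated libraries, against 181 and 135 in the unirradiated ones, and lay above with 5 others of the 13. Aqp5, a water channel of glandular epithelium, had 420 and 455 CPM in irradiated libraries, against 654 and 622.5 CPM in the unirradiated ones, and lay below with 3 others. DESeq2 called 5 of these genes higher and 3 lower of the 10 it gave an adjusted p, among them Aqp5, lower, at 0.00114. The part of these genes in the immunoglobulin result was not tested. Mammary epithelial genes were high in every library, with Krt8, a luminal keratin, at 4374 and 3323 CPM in irradiated libraries and 3962 and 3842 CPM in the unirradiated ones, and its partner Krt18 next. The list of 8 summed to 10337 and 8218 CPM in irradiated libraries, against 9734 and 9432 CPM in the unirradiated ones, so epithelial RNA outweighed immunoglobulin RNA in each library.

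**Figure D4:**
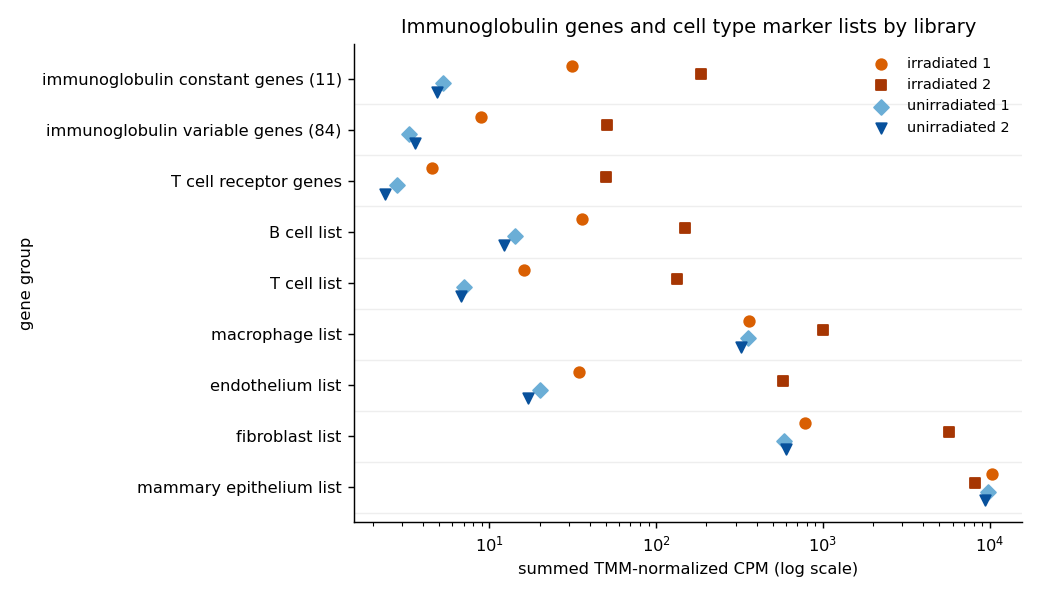
Summed TMM-normalized CPM (log scale) of the immunoglobulin constant and variable genes, the T cell receptor genes and 6 marker lists, 1 point per library. In each group but the mammary epithelium list irradiated 2 has the highest sum, and the immunoglobulin constant genes reach 31.3 and 187 CPM in irradiated libraries, against 5.25 and 4.84 CPM in the unirradiated ones.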

How the data were processed

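The submitters' processing notes name mm10 as the build and, as tools, HTSeq 0.6.1, STAR 2.5 and an unversioned DESeq2. What each did, which annotation release was used and how ambiguous reads were counted is not given in the sources used here. The authors deposited raw read counts per gene with gene length in bases. Per the labels' protocols the kit kept no strand.

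Groups follow the sample titles. Libraries were scaled by TMM, genes were kept by edgeR's filterByExpr (minimum count 10, minimum total 15), and irradiated minus unirradiated was tested with edgeR 4.0.16 (R 4.3.3), two-sided quasi-likelihood test, Benjamini-Hochberg over 15993 genes, threshold 0.05. Alternatives were DESeq2 1.42.0, limma-voom 3.58.1, other scalings and filters, a replicate block and each library left out. With 2 libraries a group the smallest p of an exact permutation test is 0.333. Intervals of shares are Wilson 95%. A gene at 0 in both unirradiated libraries is given a bound with 3 counts per library as floor. The edgeR, limma-voom and DESeq2 fits were run on simulated counts with changes set in well-counted genes. That check does not cover members with few counts or the spread between the irradiated libraries seen here. A gene lies above or below when its 2 irradiated values are both beyond its 2 unirradiated values.

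Members and lists were chosen with earlier results of these data known. Named were all constant genes, the 5 heavy, 5 kappa and 3 lambda V genes and the J gene per chain with most counts, the 2 genes with the highest mean CPM of each companion list, and Jchain, Mzb1, Xbp1, Sdc1, Prdm1, Irf4, Cd79a, Cd79b, Ms4a1, Pax5, Ptprc, Pigr and Rag1. Other genes under this rule are not reported here. A few further genes were named after their values were seen. Positions of 95 of 95 members equal GENCODE M21, the source of the sequences. The promoter octamer ATGCAAAT was searched on both strands of RefSeq promoter windows. No member (0 of 95) has a window there. It was found in 0 of 14 windows of the B cell list and Jchain, and in 570 of all 32851 windows (1.74%). The figures and tables used Python 3.11.15 with pandas 2.3.3, SciPy 1.17.1 and Biopython 1.88.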

Additional observations from a re-analysis of the deposited data

How the results depend on the processing

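The summed log2 ratio of 4.04 ranged from 3.91 to 4.03 with other scalings, with no count minimum and without Igkc, was 4.40 without Igkv14-111, a setting chosen after seeing the data, and was 2.25 to 4.81 with a library left out. No gene passed in the edgeR test, against 1338 higher and 105 lower with no filter, 437 and 56 with DESeq2, 2 and 0 with a replicate block, and 0 to 2713 higher and 0 to 2355 lower with a library left out. Of immunoglobulin genes 14 were called higher with no filter, 7 with DESeq2, 0 with the replicate block and 0 to 28 with a library left out (28 without irradiated 1, 8 without irradiated 2). No member was called lower under any of these, and stricter filters, other scalings and limma-voom called none. With 1 irradiated library the spread comes from the unirradiated pair, and the lone library is assumed to vary as they do. Whether the replicate numbers pair the libraries is not known. Deviations from the group means of irradiated 1 and unirradiated 1 had r = −0.099 over 15993 genes. With 2 libraries a group this single correlation cannot settle the question. The Igha log2 fold change of 5.16 reversed to −0.47 without irradiated 2 (edgeR adjusted p 0.767) and was 6.16 without irradiated 1. Of 100 other settings of single genes 66 kept their direction and side of the threshold and 33 passed it in addition. Per kilobase, IgG and IgA made up 36.6% and 48.4% of heavy constant levels in irradiated 1 and 2, and constant genes made up 51.1% and 50.6% in the irradiated libraries, against 28.5% and 31.2% in the unirradiated ones. With at least 20 counts constant genes made up 86.4% and 89.8% in the irradiated libraries, against 69.0% and 67.5% in the unirradiated ones. Minimums of 1, 10 and 20 counts gave 149, 55 and 23 genes. The cause of these shifts was not tested. The unirradiated libraries hold 177 and 143 immunoglobulin counts, so their single V genes rest on few reads.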

Other observations

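T cell receptor genes, the other genes assembled from V, D and J segments, followed a partly different order. The 226 genes received 90 and 942 counts in the irradiated libraries, against 58 and 40 in the unirradiated ones, which is 4.54 and 50.2 CPM in the irradiated libraries and 2.79 and 2.36 CPM in the unirradiated ones. Their 8 constant genes had 77 and 657 counts in the irradiated libraries, against 23 and 18 in the unirradiated ones. Their V genes had 13 and 235 counts in the irradiated libraries, against 32 and 19 in the unirradiated ones, so irradiated 1 was lower in V counts than both unirradiated libraries. The ratio of irradiated 2 to irradiated 1 was 11.1 for these genes and 5.92 for the immunoglobulin genes.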
